A study of Mus musculus with 6 samples.

Results

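Dentate granule cell markers are genes whose transcripts, within the hippocampus, are concentrated in the granule cells of the dentate gyrus. The set described here holds 8 genes named as known markers, with earlier results of these data in view (Prox1, C1ql2, Dsp, Calb1, Tdo2, Rfx3, Stxbp6 and Lct) out of 52550 genes in the count table, and all 8 passed the filter on low counts. RNA-seq was performed on hippocampus of male C57BL/6 J mice that had received AAV into CA1 of both hemispheres at 8 weeks of age. By the study's methods, the control group (3 libraries) received control shRNA. The L-DL KD group (3 libraries) received 4 tandem shRNAs, each under an H1 promoter, against L-DL, the long isoform of the splicing factor hnRNP DL. In the knockdown vector a CamkIIα promoter drove only the zsGreen marker, and the control virus was given at a higher titre than the L-DL virus. The titles of the control libraries read WT, without mention of a virus. The labels describe the second group both as a knockdown and as hnRNP DL-/-. The injection was aimed at CA1 and not at the dentate gyrus, and the RNA came from whole hippocampal tissue, so that a lower level can mean fewer granule cells or less RNA per cell, which cannot be told apart here.

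Granule cells are the principal excitatory neurons of the dentate gyrus. They receive input from the entorhinal cortex and send mossy fibres to CA3, and new ones are added throughout life from progenitors in the subgranular zone. The homeodomain factor Prox1 sets and maintains their identity, whereas calbindin, desmoplakin and Tdo2 mark mature cells.

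The libraries held 16052529 to 17913064 counted reads. The targeted gene Hnrnpdl was counted 2862, 3120 and 2689 times in control and 3939, 2680 and 2904 times in the libraries labelled L-DL KD, a log2 fold change of 0.03 (SE 0.125, adjusted p = 0.898, from edgeR's quasi-likelihood fit over all genes). Gene-level counts thus showed no loss of the target, they do not separate its long isoform, and the second group is called by its label throughout. The first principal component (57.3% of variance) parted the groups, and the second (19.6%) set replicate 1 labelled L-DL KD apart from the other 5 libraries. All 8 microglial markers rose in L-DL KD (summed level 939 to 1178 CPM in control and 2049 to 2563 CPM in L-DL KD), and 8 of 10 pan-neuronal genes were lower (5156 to 5408 against 3321 to 3930 CPM). The part of these shifts in the results below was not tested.

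The 8 markers did not move together. Against control, 4 fell in the group labelled L-DL KD (Lct, Tdo2, Dsp and Rfx3), 1 was higher (Stxbp6) and 3 did not pass the test (Prox1, C1ql2 and Calb1). Of all 17621 genes tested, 15.0% were called lower and 15.6% higher at an adjusted p under 0.05, so that calls were common throughout the table. The median log2 fold change was -0.44 over the 8 markers and 0.01 over all genes. The summed level of the markers overlapped between the groups, at 624, 714 and 688 CPM (counts scaled to the size of the library, with TMM factors) in control and 625, 662 and 602 CPM in L-DL KD. No control library overlapped an L-DL KD library for 6 of the 8 markers, against 47.2% of all genes.

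**Figure D1:**
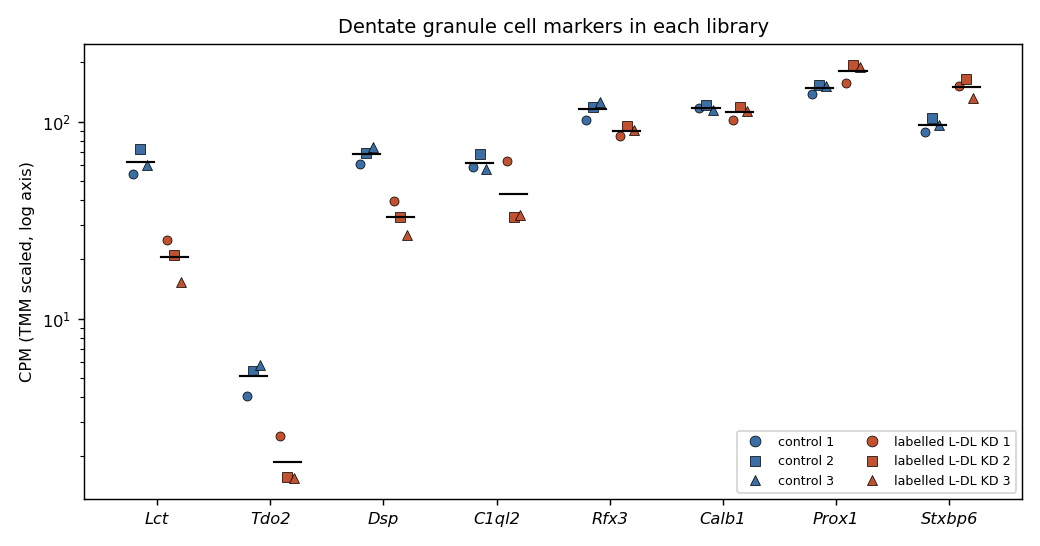
Level of each marker in each library, in CPM on a log axis, with genes ordered by fold change. Points are libraries, shapes are replicate numbers and short bars are group means. In all 3 libraries labelled L-DL KD, Lct, Tdo2, Dsp and Rfx3 sit below the controls, Stxbp6 and Prox1 sit higher, and replicate 1 labelled L-DL KD lies among the controls for C1ql2.

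Prox1 (ENSMUSG00000010175, minus strand, chr1:190118035-190170714 in GRCm38), the transcription factor that specifies granule cells, had 138, 153 and 152 CPM in the control libraries and 157, 195 and 190 CPM in those labelled L-DL KD. Every L-DL KD library was above every control library, the nearest pair lying 157 against 153 CPM. The log2 fold change was 0.29 (SE 0.0948, 95% interval 0.07 to 0.51), and the adjusted p of 0.0512 just missed the threshold. The adjusted p was 0.00358 without replicate 1 labelled L-DL KD and 0.103 to 0.167 without any 1 of the other 5 libraries. The gene was also called higher with library size scaling (adjusted p = 0.0347), with DESeq2 (0.0287) and with either other filter on low counts (0.0392 and 0.0441), and was not called by limma (0.0564). A gene on the opposite strand, Prox1os, shares 133 exonic bases with Prox1. It had 24, 50 and 23 counts in control and 49, 62 and 55 in L-DL KD, few beside the 2246 to 3473 counts of Prox1. Prox1 is also made by part of the GABAergic interneurons, and 7 of 9 GABAergic genes fell.

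Rfx3 (ENSMUSG00000040929, minus strand, chr19:27761721-28011166), a transcription factor of ciliary genes, had 102, 118 and 127 CPM in control and 84.5, 95 and 90.8 CPM in L-DL KD. The groups did not overlap, and the difference was the smallest of the 4 decreases. The log2 fold change was -0.36 (SE 0.0939, adjusted p = 0.0225). Without control replicate 2 or 3, the adjusted p rose to 0.0788 and 0.0819. Of 7 other RFX family genes tested, 1 was higher and none was lower, with a median of -0.06. Rfx5, a regulator of class II antigen presentation genes, rose from 12.4 to 20.4 CPM (log2 fold change 0.72, adjusted p = 0.00327), and Rfx7 had a log2 fold change of 0.21 (adjusted p = 0.102).

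Lct (ENSMUSG00000026354, minus strand, chr1:128284756-128328318), lactase, the enzyme that splits milk sugar in the gut, fell most. It had 54.5, 72.8 and 60.4 CPM in control and 25.2, 21.1 and 15.4 CPM in L-DL KD. The highest L-DL KD library was below the lowest control library by more than the range of either group. The log2 fold change was -1.60 (SE 0.182, adjusted p = 0.000677), and the fitted level was 0.329 times that of control.

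Tdo2 (ENSMUSG00000028011, minus strand, chr3:81957090-81976202), the dioxygenase that opens the kynurenine pathway of tryptophan breakdown, fell next. It had the fewest reads of the 8 markers, 66, 92 and 92 counts in control and 46, 28 and 26 in L-DL KD. These counts correspond to 4.07, 5.41 and 5.84 CPM against 2.53, 1.57 and 1.55 CPM, without overlap. This was a log2 fold change of -1.43 (SE 0.278, adjusted p = 0.00657). None of the 9 other kynurenine pathway genes tested with edgeR was called in either direction, and their median was -0.00. The smallest adjusted p among them was that of Ido2, a dioxygenase of the same step, at 1.47 and 0.758 CPM (log2 fold change -0.95, adjusted p = 0.0515), followed by Qprt (0.68, adjusted p = 0.272).

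Dsp (ENSMUSG00000054889, plus strand, chr13:38151294-38198577) encodes desmoplakin, which ties desmosomes to intermediate filaments. It had 61.1, 69.2 and 74.4 CPM in control and 39.5, 33.0 and 26.5 CPM in L-DL KD, again without overlap. On the log2 scale Dsp changed by -1.05 (SE 0.144, adjusted p = 0.00149). An overlapping gene model, Gm10129, had no counts in any library. Of 9 other desmosome genes, 2 were higher and 2 lower, with a median of -0.13. Pkp2, a plaque protein that binds desmoplakin, fell from 39.5 to 19.4 CPM (log2 fold change -1.02, adjusted p = 0.000293). Ppl, a plakin of the same family as desmoplakin, rose from 7.26 to 24.4 CPM (1.75, adjusted p = 0.00194).

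Stxbp6 (ENSMUSG00000046314, minus strand, chr12:44852484-45074709) was the one marker that rose. It encodes amisyn, which binds syntaxin and restrains vesicle release. The levels were 88.8, 104 and 96.0 CPM in control and 152, 165 and 132 CPM in L-DL KD, without overlap. On the log2 scale it rose by 0.63 (SE 0.0999, adjusted p = 0.00273), or 1.55-fold. Of 9 genes of the SNARE core and its regulators, 5 were lower and none higher, with a median of -0.31. Snap25, a core SNARE, fell from 1334 to 664 CPM (-1.0, adjusted p = 0.000369), and Cplx1, a complexin, fell from 389 to 265 CPM (-0.55, adjusted p = 0.00119).

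C1ql2 (ENSMUSG00000036907, plus strand, chr1:120340582-120343174), a secreted protein of mossy fibre terminals that recruits kainate receptors, was split within the L-DL KD group. It had 58.9, 68.4 and 57.6 CPM in control. Replicate 1 labelled L-DL KD, at 63.1 CPM, lay within the control range, whereas replicates 2 and 3 were at 32.9 and 33.4 CPM. The log2 fold change was -0.51 (SE 0.239, 95% interval -1.06 to 0.04, adjusted p = 0.143). Leaving out any single library except replicate 1 labelled L-DL KD gave -0.34 to -0.56 (adjusted p = 0.211 to 0.355). Without replicate 1 labelled L-DL KD it was -0.89 (adjusted p = 0.000236). That fit also called more genes across the whole table, 6477 against 5379 with all libraries. In the same replicate 1 the choroid plexus gene Ttr was at 4689 CPM, against 93.8 and 13.9 CPM in replicates 2 and 3 and 1520, 372 and 4183 CPM in control. The part of this difference in the C1ql2 levels was not tested.

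Calb1 (ENSMUSG00000028222, plus strand, chr4:15881264-15908064), the calcium buffer calbindin, moved least. It had 117, 122 and 115 CPM in control and 102, 119 and 113 CPM in L-DL KD, and the groups overlapped. Its log2 fold change was -0.08 (SE 0.0758, 95% interval -0.26 to 0.09, adjusted p = 0.447). Calb1 is also made by CA1 pyramidal cells and interneurons. Of 8 other calcium-binding proteins with EF hands, 4 were lower and none higher, with a median of -0.29. Hpca, the neuronal calcium sensor hippocalcin, fell from 1241 to 553 CPM (-1.17, adjusted p = 0.00431), and S100b, an astrocytic one, fell from 79.4 to 48.2 CPM (-0.72, adjusted p = 0.00324).

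Per kilobase of annotated exon, the levels in control ran from C1ql2 (30.8 ± 2.94 CPM per kb, SD, n = 3) through Calb1 (24.4 ± 0.770), Stxbp6 (18.2 ± 1.46), Prox1 (17.6 ± 0.969), Rfx3 (10.5 ± 1.15), Lct (9.76 ± 1.46) and Dsp (7.07 ± 0.693) to Tdo2 (1.32 ± 0.238). The libraries of Stxbp6 and Prox1 overlapped, as did those of Rfx3 and Lct, and the other neighbours were apart. In the libraries labelled L-DL KD, Stxbp6 had the highest mean (28.2 ± 3.15 CPM per kb), and Calb1, C1ql2 and Prox1 followed by their means at 23 ± 1.78, 21.6 ± 8.66 and 21.5 ± 2.46 with overlapping libraries. The C1ql2 libraries, at 16.4 to 31.6 CPM per kb, also overlapped those of Stxbp6, at 24.9 to 31.1. Lct, at 3.21 ± 0.764 CPM per kb, lay beside Dsp at 3.41 ± 0.669 and no longer beside Rfx3 at 8.17 ± 0.478.

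The ratio of each marker to Prox1 within a library does not depend on how libraries are scaled. The log2 ratio to Prox1 fell by 1.90 for Lct, 1.73 for Tdo2, 1.35 for Dsp, 0.64 for Rfx3 and 0.37 for Calb1, and it rose by 0.35 for Stxbp6. The Stxbp6 value was 0.23 without replicate 1 labelled L-DL KD and 0.47 without replicate 3. In these 6 ratios no control library overlapped an L-DL KD library, which gives the smallest p that 3 against 3 allows (two-sided exact permutation p = 0.1, adjusted over 7 ratios 0.117). The share of all genes whose ratio to Prox1 lies apart was not computed. In CPM the groups lay apart for 47.2% of all genes tested, so separation by itself was common. For Calb1, the ratio was -0.24, -0.33 and -0.40 in control and -0.62, -0.71 and -0.75 in L-DL KD. Most of this drop came from the denominator. In the TMM fit Prox1 itself stood at 0.29, whereas Calb1 stood at -0.08 with overlapping groups. For C1ql2, the ratio differed by -0.86 and the groups overlapped (exact permutation p = 0.2, adjusted 0.2). All 7 ratios share the Prox1 count and are not independent.

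**Figure D2:**
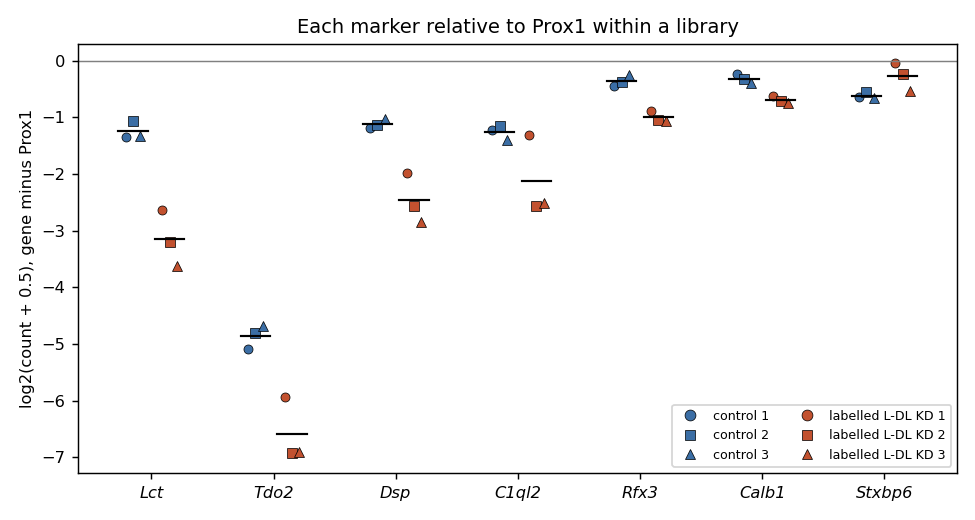
Log2 ratio of each marker's count to the Prox1 count in the same library (0.5 added to each count), with points for libraries and bars for group means. The ratios of Lct, Tdo2, Dsp, Rfx3 and Calb1 lie below every control in each library labelled L-DL KD, and that of Stxbp6 lies above. Prox1, the denominator, is itself higher in each library labelled L-DL KD than in every control.

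The scaling of the libraries decides where zero lies for these genes. When libraries were scaled to the summed counts of pan-neuronal genes, the median of all genes shifted to 0.53, and 55.2% of genes were called higher and 3.06% lower, so that 94.8% of all calls were higher, compared with 51.0% under TMM. Hnrnpdl was called higher under this scaling (0.55, adjusted p = 0.00598). In the same fit, Lct (-1.10, adjusted p = 0.000598), Tdo2 (-0.92, 0.0178) and Dsp (-0.54, 0.00587) were still lower. Stxbp6 (1.15, adjusted p = 7.09e-05), Prox1 (0.82, 0.00087) and Calb1 (0.45, 0.00882) were higher, and Rfx3 stood at 0.17 and C1ql2 at -0.01. Relative to the shifted median, Prox1 (0.29), Stxbp6 (0.62), Rfx3 (-0.36) and Calb1 (-0.09) were close to their TMM values. This closeness follows from the arithmetic and is no separate evidence. The scaling changes only the factor of each library and so shifts all genes by nearly the same amount. Of the pan-neuronal genes, Rbfox3, the nuclear antigen NeuN, fell to 98.0 CPM (-1.35, adjusted p = 0.000135), and Nefl, a neurofilament, rose from 253 to 464 CPM (0.88, adjusted p = 0.000289).

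**Figure D3:**
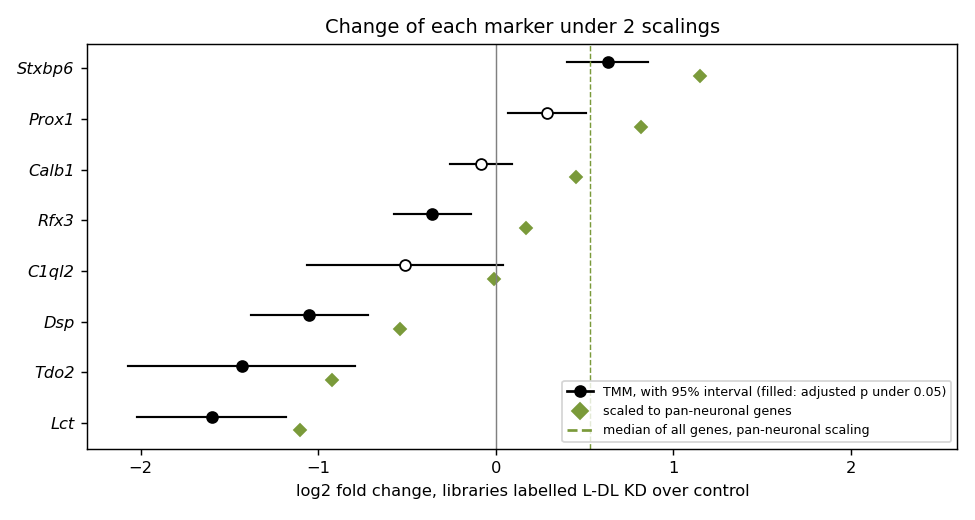
Log2 fold change of each marker, libraries labelled L-DL KD over control. Circles are the TMM fit with 95% intervals, filled where the adjusted p is under 0.05, and diamonds are the fit scaled to pan-neuronal genes, whose all-gene median of 0.53 is the dashed line. Lct, Tdo2 and Dsp are below 0 and Stxbp6 above 0 in both.

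Of 10 other genes enriched in granule cells, 5 were higher and 1 lower, with a median of 0.31, and their summed level rose from 908 to 1031 CPM in control to 1351 to 1512 CPM in L-DL KD. Fam163b rose from 162 to 351 CPM (log2 fold change 1.12, adjusted p = 0.000143). Pdzd2, a PDZ domain protein (0.73, adjusted p = 0.00177), Sema5a, a semaphorin (0.57, 0.002), Dock10, a guanine nucleotide exchange factor (0.53, 0.0186), and Ahcyl2, a regulator of ion transport (0.38, 0.0372), were also higher. Plk5, a polo-like kinase of neurons, was lower, at 21.8 and 10.3 CPM (-1.07, adjusted p = 0.0218). Maml2, a Notch coactivator (0.23, adjusted p = 0.0854), Trpc6, a cation channel (0.13, 0.751), Lrrtm4, a synaptic adhesion protein (-0.12, 0.567), and Glis3, a zinc finger factor (-0.27, 0.0719), were not called. Thus Fam163b, Pdzd2, Sema5a, Dock10 and Ahcyl2 moved in the direction of Stxbp6, and Plk5 in that of Lct, Tdo2 and Dsp.

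Of 12 mossy fibre synapse genes, 6 were lower and none higher, with a median of -0.39, and their summed level fell from 1380 to 1392 CPM in control to 768 to 1047 CPM in L-DL KD. Gpr158, a receptor of the CA3 mossy fibre synapse, fell from 112 to 32.9 CPM (-1.77, adjusted p = 0.00056). Syt7, a calcium sensor of facilitation (-0.82, adjusted p = 0.00157), Rims1, an active zone scaffold (-0.79, 0.00345), Nrxn3, a neurexin (-0.79, 0.0136), Pdyn, the dynorphin precursor (-0.79, 0.00282), and Grik5, a kainate receptor subunit (-0.40, 0.0262), were also lower. Not called were C1ql3, a relative of C1ql2 (-0.17, adjusted p = 0.449), the kainate receptor subunits Grik2 (-0.14, 0.335) and Grik4 (-0.35, 0.0589), the vesicular zinc transporter Slc30a3 (-0.37, 0.0567), Bdnf (0.25, 0.0694) and the enkephalin precursor Penk (0.98, 0.0902). Several of these genes are also used in CA3 or elsewhere in the hippocampus.

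**Figure D4:**
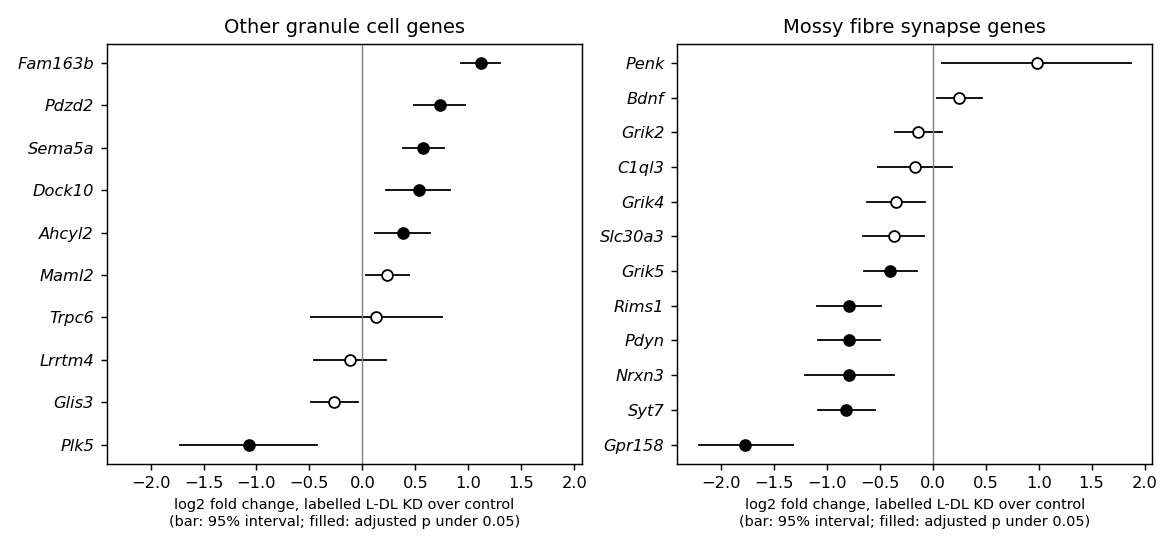
Log2 fold change with 95% interval of each gene in the lists of other granule cell genes (left) and mossy fibre synapse genes (right), filled where the adjusted p is under 0.05. On the left 5 genes are called higher and Plk5 is called lower, and on the right 6 genes are called lower and none higher.

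Markers of other cells in the tissue shifted too. Of 8 CA1 pyramidal genes, 5 were lower (median -0.82), with Pou3f1 at -1.68 (adjusted p = 0.000266) and Mpped1 at -1.05 (0.00107), and of 7 CA2 and CA3 genes, 3 were lower and 1 higher (median -0.17), with Cpne4 at -1.44 (adjusted p = 0.000289) and Bok at 0.89 (0.000243). Of 9 GABAergic genes, 7 were lower (median -1.06), with Sst at -1.42 (adjusted p = 0.00142). Of 8 immature neuron and neurogenesis genes, Dcx alone was called (0.37, adjusted p = 0.0351), and Neurod1 stood at 0.48 (0.0688). Of 6 hilar mossy cell genes, Csf2rb2 alone was called (1.2, adjusted p = 0.00534), while Ajap1 stood at -0.33 (0.101). Microglial Cx3cr1 (1.53, adjusted p = 8.9e-05) and Csf1r (1.34, 0.000114) were higher. Of 8 astrocyte genes, 4 were lower and 1 higher (median -0.31), with Gja1 at -0.67 (adjusted p = 0.0013) and Aqp4 at 0.67 (0.00175), and of 6 oligodendrocyte genes 1 was higher (median 0.18), with Mag at 0.71 (0.00972) and Mog at 0.40 (0.182). Of 5 endothelial genes 3 were higher (median 0.61), with Cdh5 at 0.85 (adjusted p = 0.00243) and Cldn5 at 1.08 (0.00296), and of 6 meningeal fibroblast genes 5 were higher (median 1.41), with Col1a2 at 1.44 (0.0024) and Lum at 1.62 (0.00364). Of 5 choroid plexus genes tested with edgeR none was called, with Kl at -0.40 (adjusted p = 0.825) and Ttr at -0.34 (0.897), and their summed level ran from 413 to 4498 CPM in control and from 28.9 to 5043 CPM in L-DL KD. Of 5 thalamic genes, Tcf7l2 alone was called (0.59, adjusted p = 0.0104), and Slc17a6 stood at -0.67 (0.0719). How far each of these cell types contributed to a marker's change was not tested.

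The genes whose levels followed the mean log2 level of the 8 markers most closely over the 6 libraries were Chrne, a muscle-type acetylcholine receptor subunit (Pearson r = 0.998), Rbfox1, a neuronal splicing factor (0.994), Olfr287, an olfactory receptor gene (0.994), Dlx1as, an antisense RNA at Dlx1 (0.993), and Gucy1b1, a guanylate cyclase subunit (0.992). The libraries fall into 2 groups, 3 of these 5 genes were called between the groups, and 427 genes had r above 0.95, so r is given as a description only. Rbfox1 fell from 389 to 283 CPM (log2 fold change -0.46, adjusted p = 0.00636), and Chrne was near the detection limit, at 0.775 and 0.186 CPM.

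Promoters are shown for Lct and Tdo2, which fell most, and for Stxbp6, which rose. Each runs from 250 bases before to 50 bases after a RefSeq start site in GRCm38.p6, written along the minus strand, on which all 3 genes lie. Capitals mark matches on either strand to the motifs searched, which were the TATA box TATAAA, the E-box of NeuroD factors CAGATG, the cyclic AMP response element TGACGTCA, the GC box GGGCGG, the CCAAT box, the X-box core of RFX factors GTTGCCA and the E-box of basic helix-loop-helix factors CACGTG.
Lct chr1:128328269-128328568: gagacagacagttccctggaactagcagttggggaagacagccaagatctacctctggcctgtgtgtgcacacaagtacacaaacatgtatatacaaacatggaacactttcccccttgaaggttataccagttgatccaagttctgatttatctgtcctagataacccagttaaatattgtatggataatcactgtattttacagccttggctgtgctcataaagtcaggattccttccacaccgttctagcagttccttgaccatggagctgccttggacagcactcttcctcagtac
Tdo2 chr3:81975679-81975978: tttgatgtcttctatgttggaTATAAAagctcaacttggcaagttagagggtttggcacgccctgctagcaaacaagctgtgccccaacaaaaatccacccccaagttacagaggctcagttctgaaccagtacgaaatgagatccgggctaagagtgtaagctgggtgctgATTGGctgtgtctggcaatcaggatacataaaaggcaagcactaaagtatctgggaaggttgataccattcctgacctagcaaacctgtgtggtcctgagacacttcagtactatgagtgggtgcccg
Stxbp6 chr12:45074434-45074733: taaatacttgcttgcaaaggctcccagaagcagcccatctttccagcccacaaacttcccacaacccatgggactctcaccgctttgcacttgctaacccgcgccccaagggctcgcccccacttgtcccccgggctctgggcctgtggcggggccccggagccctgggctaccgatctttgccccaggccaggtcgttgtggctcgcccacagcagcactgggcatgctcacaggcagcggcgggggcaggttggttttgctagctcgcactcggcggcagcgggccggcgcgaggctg
The Tdo2 window held a TATAAA, near its upstream end and far from the start site, and a CCAAT (printed as ATTGG). These motifs were found in 13.6% and 37.4% of 32851 promoters of this length and also in 1 of the 2 Prox1 windows. None of the 7 motifs was found in the Lct and Stxbp6 windows. Lct and Tdo2 had 1 and 4 CpG dinucleotides and 44.7% and 47.7% GC, below the medians of 7 and 52.7% over all promoters, whereas the other members' promoters held 14 to 31 CpG. Dsp and Rfx3, which were also lower, had 27 and 31 CpG and 73% and 68% GC. A link between promoter composition and the direction of change was not tested. GGGCGG was found in the windows of C1ql2, Dsp, Prox1 and Rfx3 (35.7% of all promoters). TGACGTCA (1.79%), GTTGCCA (4.38%) and CACGTG (7.15%) were found in none, and CAGATG (17.2%) was found only in 1 of the 2 Prox1 windows. Calb1 has no promoter in the table.

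The junction counts listed 13 splicing events in 6 of the 8 markers (Prox1, Dsp, Calb1, Rfx3, Stxbp6 and Lct), 12 of them exon skipping. Percent spliced in (PSI, given as a fraction) was at least 0.9 in every library with counts in 9 of the 13. Enough reads of both forms for a test were present in 3 events. Most of the other events were well covered but averaged under 1 skipping read per library. None of the 3 tested events passed by edgeR's quasi-likelihood test (1 had an unadjusted p under 0.05) or by limma (0 unadjusted). Across all 18829 events tested, 0.255% were called and 13.3% had an unadjusted p under 0.05. Columns of the junction table carry no replicate numbers, and its libraries are named here a, b and c within a group, as placed in the table.

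The tested event with the largest range was in Dsp, where an alternative 5′ splice site sets the length of exon 23 of 24 and with it the long or short form of the desmoplakin rod. The long form keeps 1797 bases (chr13:38191859-38193655), a multiple of 3, and its transcript codes over 8649 bases, against 6852 in the short form. The junctions are shown because the reads across them are what separate the forms, with the end of exon 23 in lower case and the start of exon 24 in capitals.
Long form: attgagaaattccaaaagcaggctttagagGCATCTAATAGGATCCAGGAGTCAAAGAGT
Short form: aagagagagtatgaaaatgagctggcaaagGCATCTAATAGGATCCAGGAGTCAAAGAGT
The PSI of the long form was 0.527, 0.468 and 0.679 in control and 0.870, 0.867 and 0.391 in L-DL KD. The L-DL KD libraries a and b were above, and library c below, every control library. The means were 0.558 ± 0.109 and 0.709 ± 0.275 (SD, n = 3), on 32 to 68 reads per library. The difference in log2 odds was 0.98 (adjusted p = 0.711), with an SE of 0.89.

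**Figure D5:**
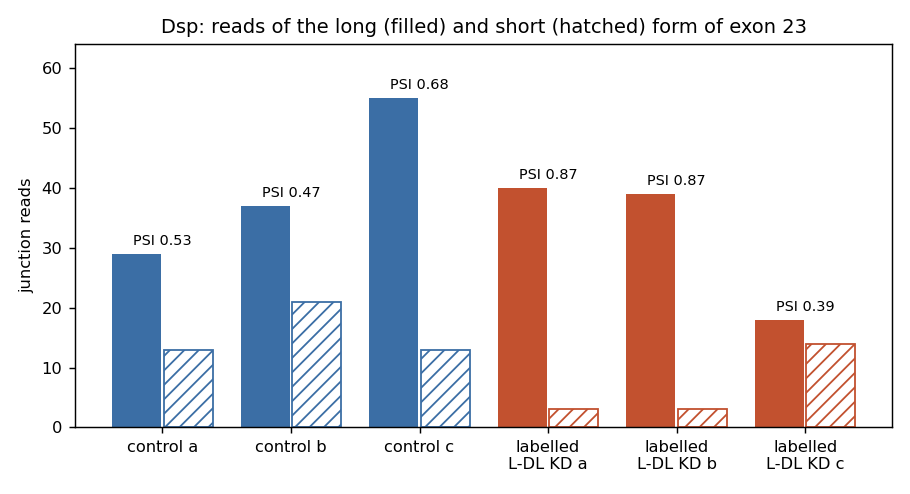
Junction reads of Dsp exon 23 in each library, filled bars for the long form and hatched bars for the short form, with the PSI after correction for effective length above each pair. Libraries are lettered as placed in the table. The PSI spans 0.391 to 0.870 within the group labelled L-DL KD, wider than the 0.468 to 0.679 of control.

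In Stxbp6, exon 2 of 6 (189 bases, chr12:45019467-45019655) had a mean PSI of 0.986 in control and 0.970 in L-DL KD (adjusted p = 0.724, 186 to 501 reads per library). In Calb1, exon 9 of 11 (54 bases, chr4:15901089-15901142) had no skipping reads in control and a PSI of 1, 0.992 and 0.981 in L-DL KD (adjusted p = 0.345 by edgeR's quasi-likelihood test, 344 to 396 reads per library). The Prox1 event, exon 4 of 5 (195 bases), had skipping reads in 1 control library only (group mean PSI 0.992). In Rfx3, exons near the 5′ end of 59 and 93 bases ranged from 0.490 to 1 and from 0 to 0.756 on 3 to 21 reads, too few for a test. Both Lct events, exons 3 and 5 of 17, had mean PSI of 0.902 to 1 in each group.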

How the data were processed

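RNA-seq was performed on mouse hippocampus, with 3 libraries in the control and 3 in the L-DL KD group. According to the study's methods and the submitters' notes, the authors aligned reads to GRCm38/mm10 (Bowtie 1.1.2 and HISAT2 2.1.0 are named), counted reads per gene with HTSeq 0.6.1 and called splicing with rMATS 4.1.0. Whether counting used strand is not given in the sources used here. The deposited gene table holds raw counts, and the deposited splicing tables hold junction counts and effective lengths per library. Their p-values, FDR and PSI differences are the authors' own comparison and were not used. The splicing tables name no group for their first and second sample, and the first was taken as L-DL KD from the study's definition of the PSI difference.

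Genes reaching 10 counts in 3 or more libraries were tested with edgeR 4.0.16 (quasi-likelihood, TMM, all 6 libraries, no covariate) in R 4.3.3, with Benjamini-Hochberg adjustment over all genes and a threshold of 0.05. The study gives no expression test. Events with a mean of at least 20 junction counts per library and 1 for either form were tested with edgeR for an interaction of form and group, with a term per library, and adjusted over all events. Symbols, exons and lengths came from GENCODE M21 (52403 of 52550 IDs matched). Ratios to Prox1 were tested by two-sided exact permutation in scipy 1.17.1. Alternatives were DESeq2 1.42.0, limma 3.58.1, other scalings, thresholds on low counts, fits blocked on replicate number and fits without 1 library. The scripts were tested on simulated data. Named genes were the 8 members, Hnrnpdl, all measured genes of the other granule cell and mossy fibre lists, the 2 with the smallest adjusted p of each other list, and the 5 most alike in pattern, and of splicing events, per member, the tested one with the smallest p and the best covered. Events of low coverage and the promoter windows were described beyond that rule, after their values were seen. One gene that the rule names is not reported here. The members and lists were chosen with earlier results of these data known. Labels give replicate numbers only, so p-values measure the spread between these samples.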

Additional observations from a re-analysis of the deposited data

How the results depend on the processing

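Across 13 alternatives for each gene, Lct, Tdo2, Dsp and Stxbp6 kept their direction and their call. The number of members called higher was 1 in the main analysis, 2 with library size scaling, DESeq2, no filter on low counts, at least 50 counts in 3 libraries and a replicate block, and 3 with pan-neuronal scaling, the additions being Prox1 and, in the last, Calb1. With 1 library left out at a time it ranged from 1 to 2. Pan-neuronal scaling turned Calb1 to 0.45 and Rfx3 to 0.17, put Hnrnpdl at 0.55 (adjusted p = 0.00598 by edgeR), and it gave 539 genes lower and 9734 higher, against 2636 and 2743 with TMM. Members called lower numbered 3 under that scaling and 3 to 5 with 1 library left out. With 1 library left out, 1676 to 3241 genes were lower and 1770 to 3236 higher. Hnrnpdl ranged from -0.13 (without L-DL KD replicate 1) to 0.15 with 1 library left out, and was at -0.00 without control replicate 3. The cause of these changes was not tested. No member's splicing event was called under any alternative. Ratios to Prox1 without a pseudocount, an alternative chosen after seeing the data, kept their direction. Deviations of same-numbered libraries correlated at 0.0626, 0.157 and -0.14, and not every library correlated best with its own number, so the numbers were not taken as pairs. With the replicate block 4635 genes were called, compared with 5379. Tdo2 rests on 26 to 92 counts and the Dsp forms on 32 to 68 reads per library.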
